A study of Mus musculus with 6 samples.

Results

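The genes described here are 8 semaphorins (Sema3c, Sema3e, Sema4a, Sema4b, Sema4c, Sema4d, Sema6d and Sema7a) and the neuropilins Nrp1 and Nrp2, chosen by symbol. All 10 were found among the 27263 genes of the deposited tables, and 9 of them were among the 11984 genes tested. They were measured by RNA sequencing in primary bone marrow stromal cells of C57BL/6 mice, taken from tibia and femur, gated on Sca-1+ and CD29+ against CD45- and CD11b-, and grown in serum-containing medium. The PBS group (3 libraries) received the buffer, and the GCA group (3 libraries) received rGCA at 50 nM, each for 3 days. The labels give neither the age of the mice nor whether the replicates of a group were different mice or dishes. The p-values therefore cover the spread of these libraries alone, and it may be technical. From general knowledge of the study, and not from its labels, GCA is grancalcin, a calcium-binding protein made by myeloid cells, and plexin-B2 was described as its receptor on stromal cells.

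Semaphorins are secreted or membrane-bound signals that steer axons, vessels and immune cells, and plexins are the receptors that pass the signal on to small GTPases of the cytoskeleton. Class 3 semaphorins are secreted and mostly need a neuropilin as the subunit that holds the ligand beside an A-type plexin, whereas classes 4, 6 and 7 are tied to the membrane and bind plexins directly. Neuropilins also bind vascular endothelial growth factors (VEGFs). In bone, Sema4d from osteoclasts is known to hold back osteoblasts, and Sema3a acting through Nrp1 is known to favour them. Plexin-B2 is also a receptor of class 4 semaphorins, among them Sema4c and Sema4d.

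The values are FPKM, which divide fragments by exon length and by the size of the library. Comparisons of level between genes therefore depend on the exon lengths used. Library totals, which were inferred from the values as described under the processing, lay between 17543509 and 18645932 fragments. The sort gate was for CD45- CD11b- cells, yet macrophage transcripts were abundant. Lyz2 (macrophage lysozyme) averaged 13518 FPKM in PBS and 8879 FPKM in GCA, and Csf1r (the macrophage growth factor receptor) 153 and 160. Adgre1 (F4/80) ranged from 330 to 382 FPKM in PBS, and was at 256, 420 and 224 in GCA replicates 1, 2 and 3. The GCA libraries thus differed among themselves in this marker. The stromal collagen Col1a1 averaged 1333 FPKM in PBS and 1149 in GCA, and Pdgfra 9.58 and 9.05. The 20 macrophage markers summed to 20807 to 23092 FPKM in PBS and 18426 to 19558 in GCA. Lyz2 was the largest part of these sums, so they do not show how the other markers moved. Of the 19 macrophage markers tested, 8 rose, 1 fell (Lyz2) and 10 did not pass. The 16 stromal markers summed to 2923 to 3171 FPKM in PBS and 2579 to 2770 in GCA, and of the 14 tested 1 rose, 3 fell and 10 did not pass. The 8 osteoblast markers summed to 158 to 211 FPKM in PBS and 262 to 345 in GCA, most of it Ibsp (bone sialoprotein), and of the 6 tested 3 rose, 1 fell and 2 did not pass. Of 5 osteoclast markers tested 2 rose and 3 did not pass. Endothelial transcripts were near the floor, with 10 of 11 markers under 1 FPKM in every library and the eleventh, Cdh5, at 1.33 FPKM in PBS and 1.17 in GCA, while Pecam1 was at 0.43 and 0.49. Tubb3, a neuronal tubulin, was at 4.07 and 4.69 FPKM. Macrophages and stromal cells both transcribe semaphorins and neuropilins, and the part of cell composition in the values below was not tested. In such bulk libraries, fewer cells of a type and less RNA per cell cannot be told apart.

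With GCA, Sema7a and Nrp1 rose, and no member fell past the threshold in the reported limma-trend fit. At an unadjusted p of 0.05 in that fit, 3 members were higher (Sema7a, Nrp1 and Sema4b) and 1 was lower (Sema3c). Sema3c passed the adjusted threshold with limma-voom and in some other fits given below. Its mean over the 6 libraries was 1.07 FPKM and its GCA mean 0.91. It thus met the 1 FPKM filter only through the PBS libraries, and with no filter its adjusted p was 0.127 (limma). Sema7a went from 2.06 ± 0.050 to 3.99 ± 0.44 FPKM (SD, n = 3 each) and Nrp1 from 28.5 ± 0.049 to 34.2 ± 1.12. The other 7 members tested did not pass, and Sema6d, whose mean over the 6 libraries was under 1 FPKM, was not tested. Over all genes 17.9% passed an adjusted p of 0.05, 11.5% higher and 6.43% lower (limma, Benjamini-Hochberg over 11984 genes), so the members' 2 of 9 (22.2%) is near the share of all genes. The groups did not overlap for 4 members, 3 higher (Sema7a, Nrp1 and Sema4b) and 1 lower (Sema3c), and for 38.5% of all genes tested. The median absolute log2 fold change was 0.18 over the 9 members and 0.11 over all tested genes. All fold changes in log2 units are GCA minus PBS on log2(FPKM + 1) values, where the added 1 shrinks the changes of genes of low level.

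**Figure D1:**
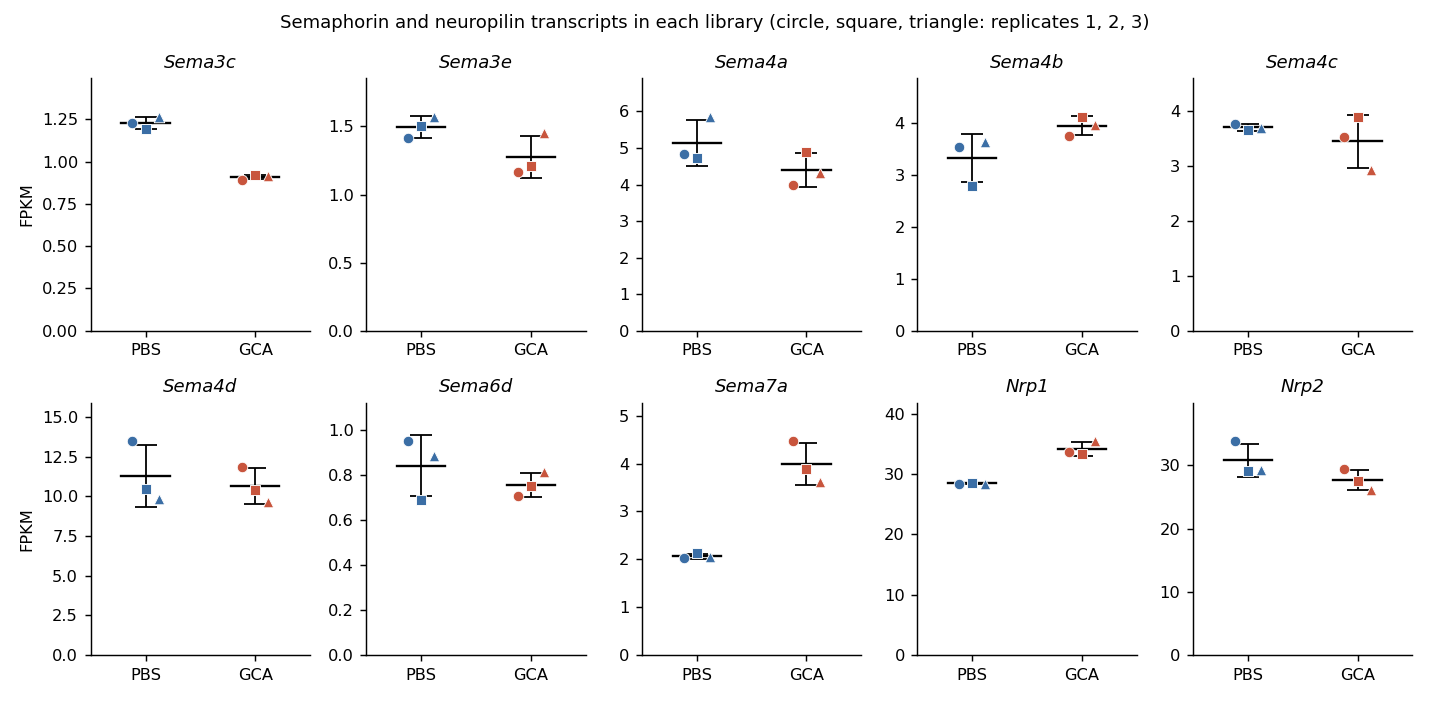
FPKM of the 10 members (vertical axes from 0, each with its own range) in the PBS and GCA libraries. Circles, squares and triangles are replicates 1, 2 and 3, horizontal lines are means and bars are SD; the GCA points of Sema7a, Nrp1 and Sema4b lie above every PBS point, and those of Sema3c below.

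The neuropilins were the most abundant of the 10. In PBS the order by mean level was Nrp2 at 30.8 FPKM, Nrp1 at 28.5, Sema4d at 11.3, Sema4a at 5.14, Sema4c at 3.69, Sema4b at 3.32, Sema7a at 2.06, Sema3e at 1.5, Sema3c at 1.23 and Sema6d at 0.84. No neighbours in that order overlapped between PBS libraries. In GCA, Nrp1 stood above Nrp2, and Sema7a moved from the seventh place to the fifth. There the libraries of Sema4a, Sema7a, Sema4b and Sema4c, at means of 4.40, 3.99, 3.95 and 3.44 FPKM, overlapped from each gene to the next.

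Sema7a (ENSMUSG00000038264, chromosome 9, 57940112 to 57962865, GRCm38) encodes a lipid-anchored semaphorin that binds plexin-C1 and beta-1 integrins and is known to act on monocytes and macrophages. Its level in the PBS libraries was 2.03, 2.12 and 2.04 FPKM, in the order of the replicate numbers used throughout, and in the GCA libraries it was 4.47, 3.89 and 3.61. The groups were far apart, and the lowest GCA library stood well above the highest PBS library. By means the rise was 1.93-fold, and the log2 fold change was 0.70 (SE 0.077, 95% interval 0.52 to 0.88, adjusted p = 0.00112, limma). That ranked 155th of all genes tested by log2 fold change, and 1.29% of genes rose as much or more. The values rest on 120 to 127 fragments in the PBS libraries and 222 to 263 in the GCA libraries. Counting alone gives a spread of about 7.46% at the mean of the 6 libraries. The spread within groups was 2.42% in PBS, smaller than counting gives, and 10.9% in GCA. Its receptor Plxnc1 had 4.06 ± 0.18 FPKM in PBS and 4.27 ± 0.81 in GCA, which did not pass (adjusted p = 0.809, limma). Itgb1, the beta-1 integrin, had levels of 348 ± 17.6 and 313 ± 21.1 FPKM and also missed it (adjusted p = 0.133, limma), while its partner Itga1 was under the filter at 0.81 and 0.59 FPKM.

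Among the secreted class 3 ligands, Sema3c (ENSMUSG00000028780, chromosome 5, 17574281 to 17730268), which signals through neuropilins with plexin-A or plexin-D1, was at 1.23, 1.20 and 1.26 FPKM in PBS and 0.89, 0.92 and 0.92 in GCA. All GCA libraries lay below all PBS libraries, which was so for 16.8% of all genes tested. The ratio of means was 0.74 and the log2 fold change −0.22 (SE 0.076, 95% interval −0.40 to −0.049), with an adjusted p of 0.0778 (limma), which did not pass. The fragments behind it were 155 to 161 in PBS and 114 to 122 in GCA. The spread within groups, 2.81% in PBS and 1.47% in GCA, was smaller than the 8.52% that counting this many fragments gives. With limma-voom on the recovered fragments the log2 fold change was −0.45 (adjusted p = 0.0146), and after quantile normalization it was −0.26 (adjusted p = 0.0446). Both fits used genes that met the filter, and with no filter the adjusted p was 0.127 (limma). Sema3e (ENSMUSG00000063531, chromosome 5, 14025276 to 14256689), which binds plexin-D1 without a neuropilin, was at 1.41, 1.51 and 1.57 FPKM in PBS and 1.16, 1.21 and 1.45 in GCA. GCA replicate 3 lay inside the PBS range, and the log2 fold change of −0.14 (95% interval −0.33 to 0.054, adjusted p = 0.294, limma) did not pass. It rests on 193 to 260 fragments a library. Sema3c and Sema3e lie in a stretch of 5.35 Mb on chromosome 5 (12383385 to 17730268) with Sema3d and Sema3a, which were at 1.96 and 2.16 FPKM in PBS and 1.91 and 2.01 in GCA and did not pass.

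Class 4 held the most abundant ligand. Sema4d (ENSMUSG00000021451, chromosome 13, 51685529 to 51793747), also known as CD100, binds plexin-B1 and plexin-B2 and, on lymphoid and myeloid cells, CD72. It was at 13.5, 10.5 and 9.85 FPKM in PBS and 11.9, 10.4 and 9.66 in GCA. The groups overlapped almost completely, with PBS replicate 1 the highest library. The log2 fold change of −0.070 had a 95% interval of −0.35 to 0.21 (adjusted p = 0.728, limma), and without PBS replicate 1 it was 0.055. Sema4a (ENSMUSG00000028064, chromosome 3, 88435959 to 88461182), a ligand of plexin-D1 and B-type plexins on immune cells, was at 4.84, 4.72 and 5.85 FPKM in PBS and 4.00, 4.89 and 4.31 in GCA. GCA replicate 2 lay above the lower 2 PBS libraries, and the log2 fold change of −0.18 (95% interval −0.39 to 0.026, adjusted p = 0.205, limma) did not pass, and without PBS replicate 3 it was −0.10.

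Sema4b (ENSMUSG00000030539, chromosome 7, 80186841 to 80226527), a transmembrane class 4 member that binds PDZ proteins through its tail, was at 3.55, 2.79 and 3.63 FPKM in PBS and 3.76, 4.12 and 3.97 in GCA. All GCA libraries lay above all PBS libraries, as they did for 21.6% of genes tested, but PBS replicate 2 was low within its group. The log2 fold change of 0.20 (95% interval 0.0013 to 0.40, adjusted p = 0.15, limma) did not pass, and without PBS replicate 2 it was 0.11. Sema4c (ENSMUSG00000026121, chromosome 1, 36548639 to 36558349), a ligand of plexin-B2, was at 3.76, 3.65 and 3.68 FPKM in PBS and 3.51, 3.88 and 2.92 in GCA. GCA replicate 2 was the highest of the 6 libraries and GCA replicate 3 the lowest, and the log2 fold change was −0.087 (95% interval −0.28 to 0.11, adjusted p = 0.519, limma). Exons of Sema4c overlap those of D430040D24Rik on the opposite strand, which was listed at 0.12 to 0.28 FPKM, and the sources used here do not say whether counting used strand. Sema6d (ENSMUSG00000027200, chromosome 2, 124089969 to 124667770), which binds plexin-A1, was at 0.95, 0.69 and 0.89 FPKM in PBS and 0.71, 0.75 and 0.81 in GCA, on 132 to 183 fragments. The groups overlapped, and no test was made.

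Nrp1 (ENSMUSG00000025810, chromosome 8, 128358604 to 128503363), the coreceptor of Sema3a and of VEGF-A, was at 28.5, 28.5 and 28.4 FPKM in PBS and 33.7, 33.4 and 35.5 in GCA. All GCA libraries stood above all PBS libraries. The rise by means was 1.20-fold, with a log2 fold change of 0.26 (SE 0.044, 95% interval 0.15 to 0.36, adjusted p = 0.00701, limma), and 11.7% of all genes tested rose as much or more. The 3 PBS libraries agreed to within 0.171% (SD as a percent of the mean), closer than the 1.34% that counting 4959 to 6471 fragments gives, and the GCA libraries to within 3.28%. Limma moderates such a small spread with that of other genes. On values rescaled to TPM the log2 fold change was 0.25 with an adjusted p of 0.0847. Without the most abundant entry, the small RNA Gm23935 with 6.41% to 12.3% of all FPKM, which was an alternative chosen after seeing the data, it was 0.26 with an adjusted p of 0.0152.

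Nrp2 (ENSMUSG00000025969, chromosome 1, 62703285 to 62818695), the coreceptor of Sema3f and of VEGF-C, was at 33.8, 29.2 and 29.4 FPKM in PBS and 29.4, 27.5 and 26.2 in GCA. PBS replicate 1 was the highest library, and GCA replicate 1 lay inside the PBS range. The log2 fold change of −0.14 (95% interval −0.31 to 0.017, adjusted p = 0.196, limma) did not pass, and without PBS replicate 1 it was −0.077. Within a library, the balance of the neuropilins does not depend on how libraries are scaled. The ratio of Nrp1 to Nrp2 was 0.841, 0.978 and 0.968 in PBS and 1.15, 1.21 and 1.35 in GCA. By FPKM, Nrp2 was thus the higher of the pair in every PBS library and Nrp1 in every GCA library. Which of them is higher depends on the exon lengths used (9785 bases for Nrp1 and 11842 for Nrp2). By fragments, Nrp2 was still the higher in GCA replicate 1 (6223 against 5895). In GCA replicate 2 the fragments were nearly equal (5728 for Nrp1 and 5722 for Nrp2). The log2 ratio rose by 0.41 (from −0.11 ± 0.12 to 0.30 ± 0.12, SD, n = 3 each), with an exact two-sided permutation p of 0.1, the smallest that 3 against 3 allows.

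**Figure D2:**
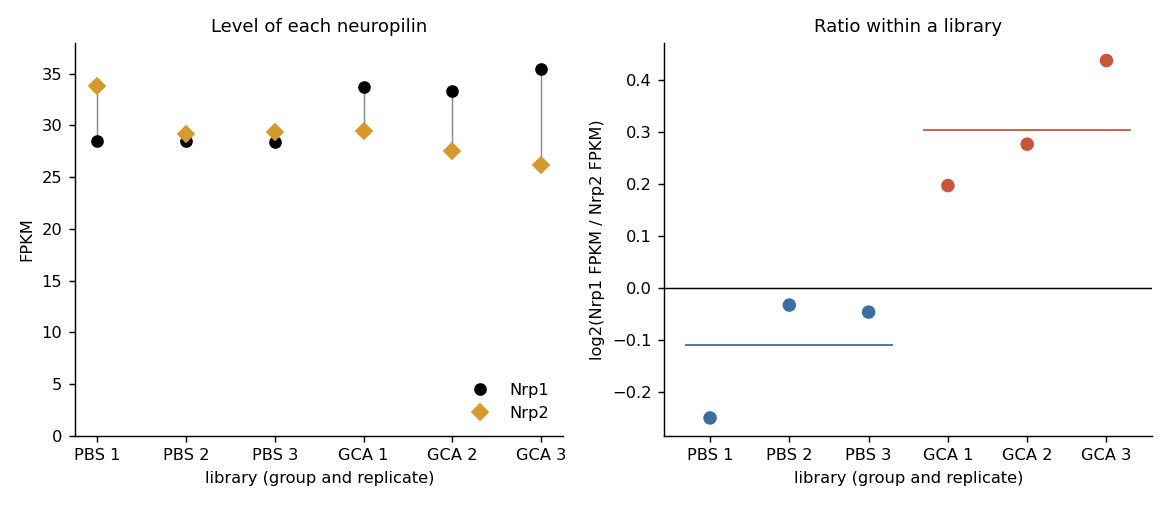
Left, FPKM of Nrp1 (circles) and Nrp2 (diamonds) in each of the 6 libraries, joined by a line within a library; right, log2 of their ratio, with group means as lines. The ratio is below 0 on the log2 scale in all 3 PBS libraries and above 0 in all 3 GCA libraries.

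The stretches just upstream of the RefSeq start sites of the 2 genes that rose are shown here, because they are the members that passed the test. Each is 250 bases of GRCm38.p6 on the plus strand, from RefSeq, at chr9:57939862-57940111 for Sema7a and chr8:128358823-128359072 for Nrp1, and no exon of GENCODE M21 overlaps either. The Nrp1 window nevertheless lies inside the gene as GENCODE M21 places it, which starts at 128358604. Capitals mark matches, on either strand, to any of 7 motifs. The GC box was searched as GGGCGG, while the TATA box was searched with the letters TATAAA. For the CCAAT box those letters themselves were used. The AP-1 site was read as TGACTCA, whereas the cyclic AMP response element was read as TGACGTCA. The E-box was taken as CACGTG, and finally the core of the antioxidant response element was taken as TGACNNNGC. No matches overlapped each other.
Sema7a: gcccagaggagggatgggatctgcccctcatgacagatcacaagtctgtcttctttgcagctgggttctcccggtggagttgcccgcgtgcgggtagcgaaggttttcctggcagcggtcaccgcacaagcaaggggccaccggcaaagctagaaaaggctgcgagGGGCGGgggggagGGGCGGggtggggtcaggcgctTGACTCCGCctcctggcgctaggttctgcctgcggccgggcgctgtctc
Nrp1: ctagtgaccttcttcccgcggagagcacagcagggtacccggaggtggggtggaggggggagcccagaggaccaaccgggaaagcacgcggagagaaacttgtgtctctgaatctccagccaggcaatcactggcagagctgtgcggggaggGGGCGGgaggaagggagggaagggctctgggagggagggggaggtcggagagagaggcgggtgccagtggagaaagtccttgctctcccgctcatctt
Sema7a had 2 GC boxes, which end 79 and 66 bases before the start, and 1 match to the antioxidant response element core, which ends 41 bases before it. Nrp1 had 1 GC box, which ends 93 bases before the start. Of 32851 upstream windows of the same length, 32.7% held a GC box and 10.2% the antioxidant response element core. The other 5 motifs, held by 12.4% (TATA box), 33.8% (CCAAT), 4.46% (AP-1 site), 1.55% (cyclic AMP response element) and 6.02% (E-box) of windows, had no match in either gene's window. The GC content was 66.4% for Sema7a and 64.4% for Nrp1, against a median of 52.4%. Such matches were not particular to the genes that rose: all 8 other members had a GC box in at least 1 of their 16 RefSeq windows, and Sema4a and Sema4d had the antioxidant response element core in 1 window each. These are matches of letters only.

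Beyond the 8 semaphorins above, 11 others of the family were in the tables, and 5 of them were tested: Sema3a, Sema3b, Sema3d, Sema3f and Sema6b. None of the 5 passed in limma-trend or limma-voom, and 0 of them reached an unadjusted p of 0.05. Sema6b, a transmembrane ligand of A-type plexins, was the highest of them at 4.93 ± 0.27 FPKM in PBS and 5.87 ± 1.26 in GCA (adjusted p = 0.307, limma), with GCA replicate 2 at 7.27. Sema3f, the main class 3 ligand of Nrp2, was at 2.67 ± 0.54 and 2.52 ± 0.21 FPKM, and Sema3b at 2.15 ± 0.50 and 1.93 ± 0.17. Summed over 19 semaphorin genes, the level was 42.8 to 48.8 FPKM in PBS and 45.3 to 47.8 in GCA, so the ranges overlapped. Class 4 made up 53.8% ± 0.95 of that sum in PBS and 51.4% ± 2.24 in GCA. Class 3 made up 25.6% ± 1.24 and 22.9% ± 2.36. Sema7a alone made up 4.53% ± 0.40 of the sum in PBS and 8.63% ± 1.02 in GCA (SD, n = 3).

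**Figure D3:**
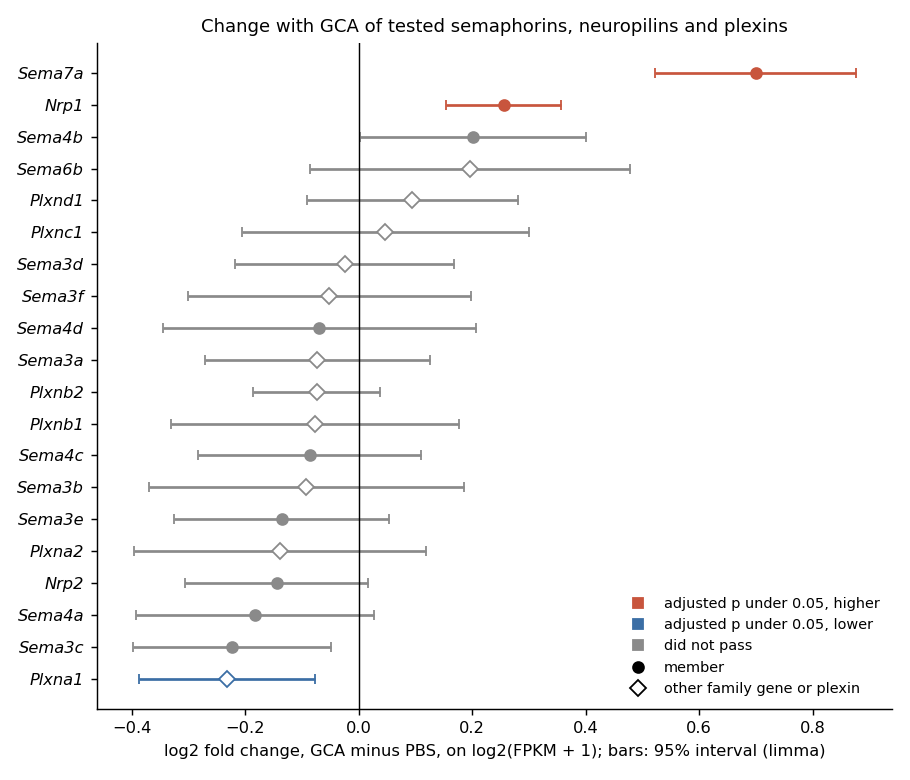
Log2 fold change (GCA minus PBS, on log2(FPKM + 1)) with 95% intervals from limma for the 20 tested semaphorins, neuropilins and plexins; filled circles are members, open diamonds other genes. Sema7a at 0.70 and Nrp1 at 0.26 passed upward, Plxna1 at −0.23 passed downward, and the other 17 did not pass.

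Of 9 plexins 6 were tested, and only Plxna1 passed. Plxna1, the plexin that pairs with neuropilins for class 3 ligands and binds Sema6d, was at 31.5, 27.0 and 28.0 FPKM in PBS and 25.7, 23.4 and 24.0 in GCA (log2 −0.23, SE 0.067, adjusted p = 0.0483, limma). Leaving out any 1 of the 6 libraries ended that call, with log2 fold changes of −0.28 to −0.17 and adjusted p-values of 0.0553 to 0.117. Plxnb2, the described receptor of grancalcin, was the most abundant plexin, with 80.3 ± 1.71 FPKM in PBS and 76.3 ± 3.53 in GCA, and missed the threshold (adjusted p = 0.33, limma). Plxnd1, the receptor of Sema3e and Sema4a, had 21.6 ± 1.81 and 23.1 ± 2.11 FPKM, with no pass (adjusted p = 0.457, limma). Plxna2, another partner of neuropilins, was at 5.17 ± 0.69 and 4.61 ± 0.66 FPKM (adjusted p = 0.427, limma). Plxnb1, to which Sema4d binds most tightly, was at 1.25 ± 0.30 and 1.12 ± 0.12 FPKM.

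Over the lists of semaphorin family members, receptors, growth factor ligands, signalling proteins and processing enzymes, 57 genes that are not members were tested. Of these 5 rose, 5 fell and 47 did not pass, which is 17.5% beside the 17.9% of all genes, with a median log2 fold change of −0.025 beside 0.0056 over all genes. The clearest fall was of Cd72, the receptor of Sema4d on B cells and macrophages, at 9.81, 10.1 and 11.1 FPKM in PBS and 5.33, 6.51 and 5.28 in GCA (log2 −0.76, SE 0.082, adjusted p = 0.00109, limma). Havcr2 (TIM-3), a relative of the Sema4a receptor TIM-2, rose from 14.7 ± 0.33 to 19.0 ± 0.73 FPKM (adjusted p = 0.00282, limma). Both are genes of leukocytes. Over the macrophage, B cell, T and NK cell, dendritic cell and neutrophil lists, Lyz2 was the only marker that fell past the threshold. From the T and NK cell list 1 marker rose, and from the neutrophil list 1. Of 19 macrophage markers tested 8 rose, 1 (Lyz2) fell and 10 did not pass. Of all genes tested, 11.5% passed upward and 6.43% downward. The macrophage list summed to 20807 to 23092 FPKM in PBS and 18426 to 19558 in GCA, with Lyz2, which fell, as its largest part. Of the 3 B cell markers tested 2 rose and 1 did not pass. Cd22 went from 1.38 ± 0.064 to 3.39 ± 0.36 FPKM and Blnk from 3.72 ± 0.37 to 6.37 ± 1.03. The B cell list summed to 9.89 to 10.7 FPKM in PBS and 14.5 to 16.1 in GCA. Ms4a1, Pax5 and Cd79a, which define B cells, were at or near 0, with means of at most 0.16 FPKM. The part of cell composition in these calls was not tested. The calls of Cd72 and Havcr2 held under the 20 alternatives run for them.

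Among the growth factors that neuropilins bind, Vegfb rose from 13.7 ± 1.78 to 18.5 ± 1.84 FPKM (adjusted p = 0.0294, limma) and the other 4 tested did not pass, each with a lower mean in GCA. Vegfa was at 12.8 ± 1.08 and 11.5 ± 1.09 FPKM, Vegfc, the ligand of Nrp2, at 3.43 ± 0.67 and 2.86 ± 0.26, and Pgf (placental growth factor) at 2.57 ± 0.32 and 2.28 ± 0.090. Vegfd was at 9.43 ± 1.52 and 7.30 ± 0.34 FPKM (log2 −0.32, adjusted p = 0.064, limma). The median log2 fold change of the 5 was −0.15. The VEGF receptors Kdr, Flt1 and Flt4 were below the filter, at 0.20, 0.037 and 0.58 FPKM in PBS and 0.35, 0.043 and 0.59 in GCA. Of 28 signalling genes tested, 3 rose and 2 fell. Gipc1, whose protein binds the tail of Nrp1, rose from 40.0 ± 1.19 to 45.4 ± 2.33 FPKM. Fes, a tyrosine kinase that binds plexin-A1, rose from 21.6 ± 0.78 to 25.8 ± 0.42, and Dpysl2 (CRMP2), a tubulin-binding effector of Sema3a, from 5.03 ± 0.48 to 6.50 ± 0.63. Rnd3 and Rhod, small GTPases of families that act at plexins, fell from 32.7 ± 0.14 to 26.8 ± 0.95 and from 12.3 ± 0.48 to 9.64 ± 1.05 FPKM. Ptk7, a kinase-like receptor that takes part in plexin signalling, fell from 37.1 ± 2.09 to 31.6 ± 1.47. Furin, which cleaves class 3 semaphorins, had 14.5 ± 0.47 and 13.0 ± 0.030 FPKM, with no pass (adjusted p = 0.0717, limma), and none of the 5 processing enzymes tested passed in limma-trend. Of the 5, 1 (Furin) was lower with limma-voom at the adjusted threshold, and in limma-trend at an unadjusted p of 0.05.

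Most of these calls were near the threshold, and were lost with 5 libraries in place of 6 while the fold changes kept their direction. Leaving out any 1 of the 6 ended that of Gipc1 (log2 0.14 to 0.21, adjusted p = 0.0568 to 0.147), and leaving out any but GCA replicate 3 that of Dpysl2 (log2 0.25 to 0.37 over all 6, adjusted p = 0.0624 to 0.11 in those 5). The call of Vegfb was lost without PBS replicate 2 (0.0925), PBS replicate 3 (0.0808), GCA replicate 1 (0.0888) or GCA replicate 3 (0.0838), with a log2 fold change of 0.33 to 0.50 over all 6. Rhod lost its call without PBS replicates 1, 2 or 3 (0.0785, 0.0523 and 0.0708) or GCA replicate 3 (0.0568), with log2 −0.39 to −0.25. Ptk7 lost its call without PBS replicates 1 or 3 (0.0883 and 0.0932) or GCA replicates 1 or 2 (0.0837 and 0.0681), with log2 −0.27 to −0.19. Rnd3 and Fes kept theirs without each library in turn, and with TPM they had adjusted p-values of 0.058 and 0.09 (limma).

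**Figure D4:**
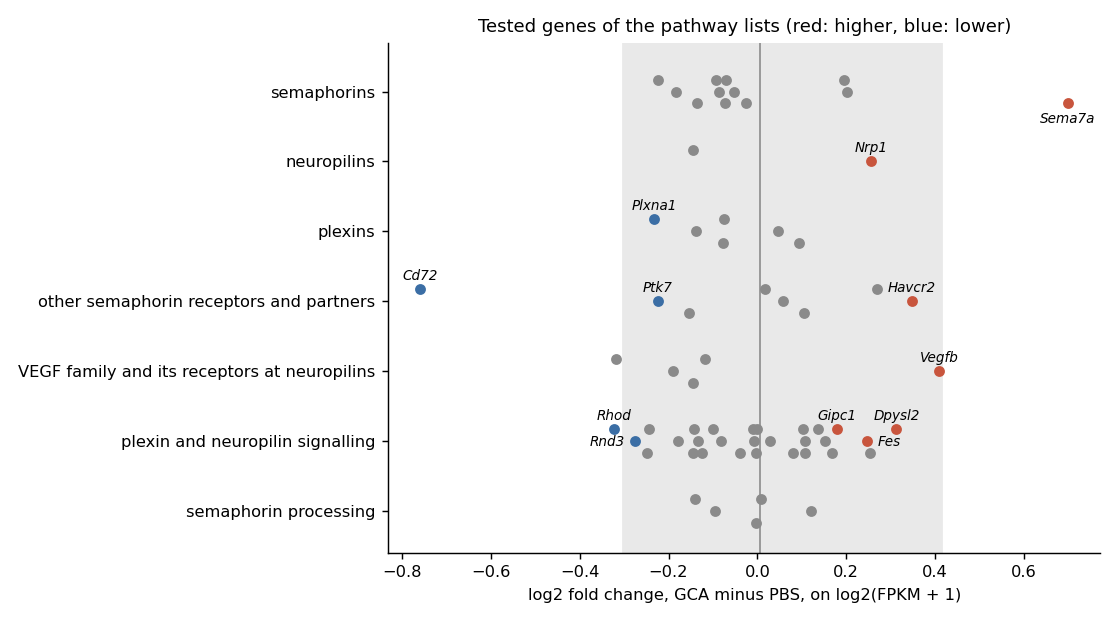
Log2 fold change (GCA minus PBS, on log2(FPKM + 1)) of each tested gene of the 7 lists; named red and blue points passed an adjusted p of 0.05, grey points did not. The grey band spans the 5th to 95th percentile of all tested genes (−0.30 to 0.42) and the line is their median; Sema7a and Cd72 lie farthest outside it.

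The genes whose values over the 6 libraries lay closest to those of Sema7a, by root mean square distance of log2(FPKM + 1) values centred on each gene's mean, were Dhcr7, an enzyme of cholesterol synthesis (distance 0.057), and Eme1, a subunit of a DNA repair nuclease (0.063). Dhcr7 averaged 6.81 FPKM in PBS and 11.6 in GCA, and Eme1 averaged 0.88 and 1.92. For Nrp1 they were Pfkfb4, a regulator of glycolysis (0.013), at 5.59 and 6.87 FPKM, and Stard3nl, an endosomal protein (0.013), at 11.7 and 14.0. With 6 libraries in 2 groups, such likeness mostly repeats the difference between the groups.

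The rise of Sema7a passed under every alternative in which it was tested, with adjusted p-values of 0.000205 to 0.00986. With genes under 5 FPKM removed it was not tested. That of Nrp1 had adjusted p-values of 0.00242 to 0.0847, and the highest, with TPM, was the only 1 above 0.05 among its 20 alternatives. Without each library in turn they were 0.00267 to 0.00829 for Sema7a and 0.00913 to 0.0315 for Nrp1. Sema3c passed with limma-voom (0.0146), without trend and robust moderation (0.0186), with protein-coding genes alone (0.0385) and after quantile normalization (0.0446). It did not pass in the reported fit or without any 1 library (0.128 to 0.219). Nor did it pass with the replicate block (0.147), no filter (0.127), TPM (0.174) or median centring (0.0632). Pseudocounts of 0.1 and 0.5 gave 0.08 and 0.0783, and TPM without the most abundant entry gave 0.0878.

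**Figure D5:**
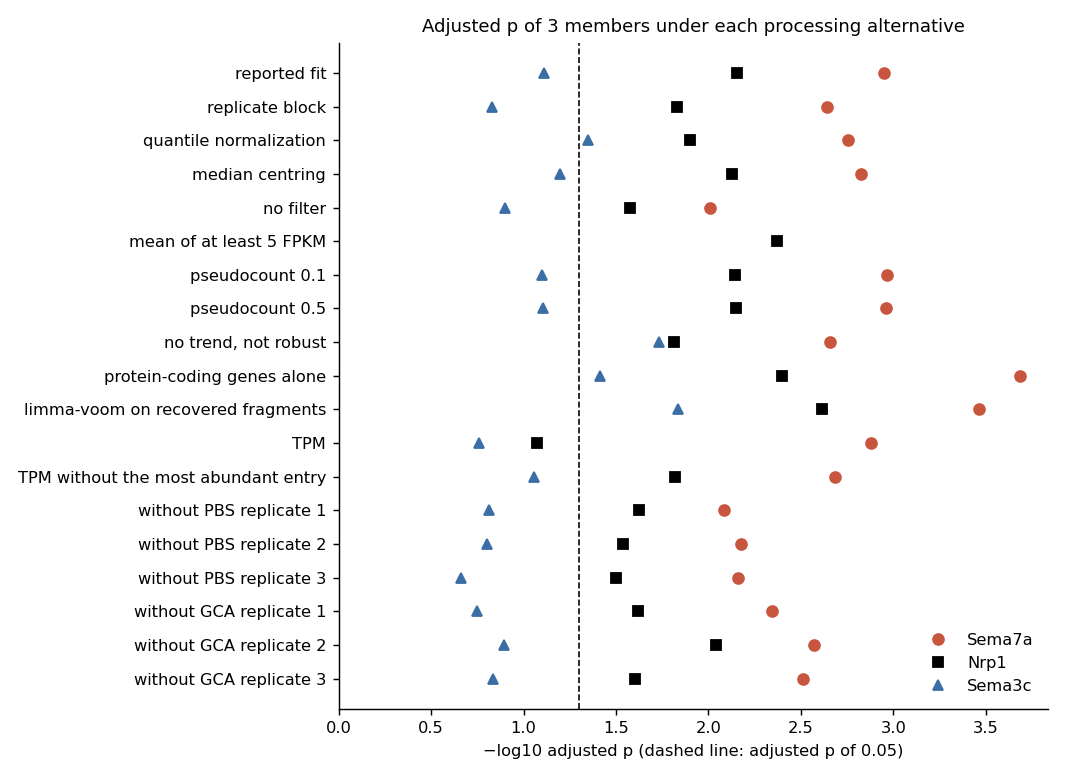
Adjusted p on a −log10 axis for Sema7a, Nrp1 and Sema3c in the reported fit and under each alternative (rows); the dashed line is an adjusted p of 0.05. All points of Sema7a lie to the right of the line, Nrp1 crosses it with TPM, and Sema3c lies to the right with 4 alternatives.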

How the data were processed

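The authors deposited 1 value per Ensembl gene and library, in 6 tables. The unit is named neither in the headers nor in the labels. The deposited values were identified as FPKM from the exon-union length of each gene in GENCODE M21. For 91.0% of matched values above 0, value times length gave a whole number of fragments (within 0.02) over a single library total. The library totals were inferred in this way, and the remaining values were rounded to whole fragments. Recovered fragments summed to more than the inferred total in every library, at 19614394 against 18229435 in PBS replicate 1. The aligner was Bowtie 0.12.2 per the submitters' processing notes, which list mm8 beside mm9 without a role. The sources used here do not give the counter, annotation, strand use or filters. Gene positions are those of GENCODE M21 (GRCm38), attached by identifier, with 27204 of 27263 genes matched.

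Genes were tested with limma-trend (R 4.3.3, limma 3.58.1), robustly moderated, on log2(FPKM + 1). It took genes whose mean over the 6 libraries reached 1 FPKM, with treatment as the only term, two-sided, adjusted by Benjamini-Hochberg over all genes tested. The fit was also run on simulated fragments with a common spread for all genes. That setting is simpler than these data, so it says nothing about the calls made here. Alternatives were other scalings, filters, pseudocounts, limma-voom on the recovered fragments, TPM, a replicate block and leaving out each library. Named genes were the members, the listed pathway genes past the threshold, semaphorins and plexins of at least 1 FPKM, defining marker genes, and for each member that passed the 2 genes nearest in pattern. Outside that rule, Itgb1, Itga1, the rest of the VEGF list, Furin, Ibsp and the B cell markers Cd22, Blnk, Ms4a1, Pax5 and Cd79a are named, chosen after their values were seen. Members and lists were chosen with earlier results of these data known. Fragment-counting spreads cover counting error only.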

Additional observations from a re-analysis of the deposited data

How the results depend on the processing

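Direction and call of Sema7a and Nrp1 held under the alternatives run, apart from the TPM call of Nrp1. Members called higher numbered 2, but 1 with TPM and 1 with a filter at 5 FPKM, where Sema7a was not tested. Members called lower numbered 0, and 1 (Sema3c) with limma-voom, protein-coding genes alone, quantile normalization, no trend and robust moderation, or a threshold of 0.1. Leaving out each library gave 2 higher and 0 lower throughout. Leaving out each library moved the log2 fold change of Sema4c between −0.16 and 1.62e-05 (without GCA replicate 3) and that of Sema4d between −0.15 and 0.055 (without PBS replicate 1). Neither passed in any fit, and the cause was not tested.

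Over all genes 2151 passed, and 837 at a threshold of 0.01, 1075 with no filter, 1134 with TPM and 1225 to 2078 without 1 library (lowest when PBS replicate 3 was left out, with 1307 for PBS replicate 2 and 1361 for GCA replicate 1). Higher calls were 64.2% of calls (1380 and 771), and 53.8% (1198 and 1027) after quantile normalization. Of the other pathway genes 5 rose and 5 fell. The counts were 2 and 2 at a threshold of 0.01, 8 and 10 at 0.1, 2 and 2 with no filter, 1 and 1 with TPM, and 2 and 3 with TPM without the most abundant entry, chosen after seeing the data. Those called lower were 8 after quantile normalization, 3 without trend and robust moderation and 10 with limma-voom. Without 1 library 2 to 4 rose and 2 to 4 fell.

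Same-numbered replicates did not deviate together beyond the threshold set for pairing (correlations 0.082, 0.029 and 0.068), although each library correlated best with its own number. With the replicate block 2094 genes passed, 2 members rose and 0 fell, and the Nrp1 to Nrp2 difference was 0.41 with an exact p of 0.25, the smallest 3 pairs allow. Without 1 library that difference was 0.34 to 0.47. Sema3c, Sema3e, Sema6d and Sema7a rest on under 300 fragments a library, which limits their precision.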
